A study of Homo sapiens with 2 samples.

Results

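Among cells of the A549 line sorted for loss of a chromosome reporter, a small set carried almost no mitochondrial RNA. These cells were taken as barcodes with at least 1000 unique molecular identifiers (UMIs, each standing for 1 captured RNA molecule), at least 500 genes, and less than 1% of UMIs on genes whose symbol starts with MT-. There were 283 such cells, of 4625 barcodes past the same minimums and of 5706 barcodes in all. They are called members below, and the 3553 cells with 1% to 20% mitochondrial UMIs are called comparison cells. The remaining 789 barcodes past the minimums had over 20%. The members were chosen by the measured mitochondrial share, so the levels of the MT- genes are a description, and comparisons of other genes of the same cells are given as ratios without a test.

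A549 is an established human line of epithelial cells from a lung adenocarcinoma. The squashed library came from cells confined with polydimethylsiloxane (PDMS) micropillars, a device that presses cells flat. The control library came from the same line in 2D culture without confinement. In both libraries the cells were alive, had 48 h of recovery and were sorted for loss of the reporter, which about 1 cell in 500 shows, so all cells described here share that loss. The labels name 1 batch for both libraries and 1 library for each treatment, so no difference between squashed and control cells has a check by replicates. Ratios and intervals describe these 2 libraries, and every interval covers counting error only.

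Mitochondria keep a small circular genome that encodes a few subunits of the respiratory chain and ATP synthase, together with the ribosomal and transfer RNAs needed to make them. All other mitochondrial proteins, among them most respiratory subunits, the mitochondrial ribosomal proteins and the import machinery, are encoded in the nucleus, made in the cytosol and imported. In single-cell data a high share of mitochondrial mRNA is often used to set aside damaged cells.

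The members made up 6.21% of squashed barcodes past the minimums (152 of 2449, exact binomial 95% interval 5.28 to 7.24). In the control library they made up 6.02% (131 of 2176, interval 5.06 to 7.10). The shares in the 2 libraries differed by less than their counting intervals. Below the minimums, barcodes with under 1% mitochondrial UMIs were more frequent in both libraries, at 17.9% of 683 squashed barcodes and 16.3% of 398 control barcodes. Scrublet, a doublet caller, marked 0 squashed members and 1 control member, against 15 comparison cells in each library. The libraries shared 4 barcode sequences, of which 1 was a squashed member and 0 were members in both. RNA free in solution was not estimated.

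The share of mitochondrial UMIs formed a spread with no gap at the limit. Of the members, 60 had under 0.1%, 150 had 0.1% to 0.5% and 73 had 0.5% to 1%, and 9 had no mitochondrial UMI at all. The squashed cells nearest to the limit had 0.921%, 0.951% and 0.952% on the lower side and 1.06%, 1.07% and 1.08% on the upper side. The control cells nearest to it had 0.949%, 0.956% and 0.962%, then 1.04%, 1.06% and 1.07%. Between 0.8% and 1.2% lay 19 squashed and 40 control cells.

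Members had far fewer UMIs than comparison cells. The median member had 2209 UMIs and 889 genes, whereas the median comparison cell had 11768 UMIs and 2311 genes. Squashed members had a median of 1746 UMIs, the lowest 1006 and the highest 18382, against a median of 10158 in squashed comparison cells. Control members had a median of 3779 UMIs, the lowest 1014 and the highest 18937, against 13236 in control comparison cells. The 2 classes overlapped in depth, but 63 squashed members and 25 control members lay between 1000 and 1500 UMIs, where only 31 squashed and 18 control comparison cells lay. Less RNA per cell and less complete capture of a cell's RNA cannot be told apart from these counts. The members' UMIs summed to 490235 in the squashed and 610258 in the control library, and the comparison cells' to 22838088 and 26872134.

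**Figure D1:**
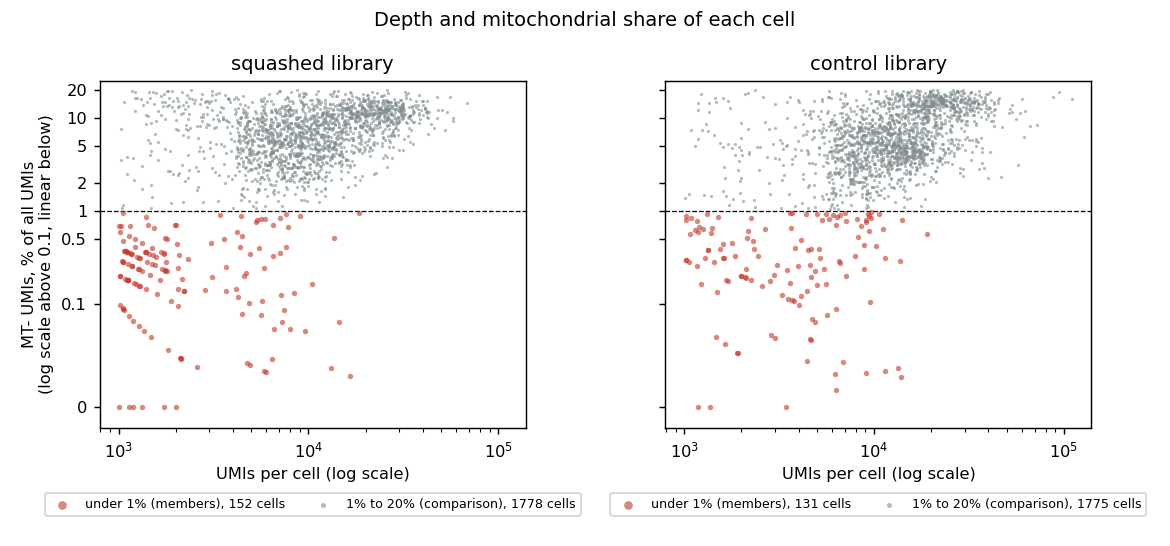
Each point is 1 cell, with its UMIs on the horizontal log axis and its mitochondrial share in percent on the vertical axis, for the squashed library on the left and the control library on the right. The members, in red below the dashed line at 1%, reach from no mitochondrial UMI up to the line with no gap, and most lie to the left of the grey comparison cells.

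The fewer genes per member went with the lower depth. When every cell was thinned at random to 1000 UMIs, the median number of genes was 508 in members and 502 in comparison cells. In the squashed library the thinned medians were 506 in members and 476 in comparison cells, and in the control library 516 and 519. At equal total depth the median number of genes was thus close in both classes, and slightly higher in members of the squashed library. The thinned UMIs included mitochondrial ones, whose median share was 0.279% in members and 7.03% in comparison cells. Thinned members thus kept more UMIs on nuclear genes, and numbers of genes at equal nuclear UMIs were not computed. The median share of non-mitochondrial UMIs on ribosomal protein genes was 36.2% in members and 34.4% in comparison cells. By these medians over cells the libraries went opposite ways, with 36.8% in squashed members against 37.5% in squashed comparison cells. In the control library the median share was 35.2% in members against 32.7% in comparison cells. In summed UMIs members were higher in both libraries. Large-subunit genes took 22.9% against 20.9% in squashed and 21.1% against 19.0% in control cells. Small-subunit genes took 16.4% against 14.9% in squashed and 15.3% against 13.8% in control cells.

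The members carried markers of the A549 line, and markers of other cell types were at or near 0. Keratin 8 (KRT8), a filament protein of simple epithelia, was at 1240 counts per 1000000 non-mitochondrial UMIs (CPM) in squashed members against 1285 CPM in squashed comparison cells, and at 1249 CPM in control members against 866 CPM in control comparison cells. Of 7 listed epithelial markers only KRT8 and KRT18 reached 50 CPM in members or comparison cells; KRT19, EPCAM and CDH1 did not. All 8 listed markers of the line's KEAP1-mutant, NRF2-driven state were measured. Their sum was 1.45% of squashed members' non-mitochondrial UMIs against 1.37% in squashed comparison cells. In control members the sum was 1.61%, against 1.55% in control comparison cells. Of the 5 erythroid and 3 platelet markers 0 UMIs were seen in members of either library. This allows a share of up to 0.000614% of squashed and 0.000494% of control members' non-mitochondrial UMIs for each list. The 7 immune markers had 9 UMIs in squashed and 12 UMIs in control members, and the 5 fibroblast markers had 3 and 2 UMIs. The 5 endothelial markers had 6 UMIs in squashed and 36 in control members. The latter is 0.0059% of control members' non-mitochondrial UMIs, against 0.0049% in control comparison cells.

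The 13 mitochondrially encoded mRNAs together were at 3258 CPM of all UMIs in squashed members against 91722 CPM in squashed comparison cells, 28.2-fold lower. In control members they were at 4297 CPM against 91627 CPM in control comparison cells, 21.3-fold lower. That they were low follows from how the cells were chosen, and the 13 were lower by unequal amounts. MT-ND3, a subunit of complex I, was 36.9-fold lower in squashed and 31.5-fold lower in control members. MT-CYB, the cytochrome b of complex III, was 30.1-fold and 34.4-fold lower, and MT-CO3, a subunit of cytochrome c oxidase, 32.4-fold and 29.0-fold.

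MT-ND6, the 1 mRNA of the 13 transcribed from the light strand of the mitochondrial genome, differed least. It was at 91.8 CPM of all UMIs in control members against 174 CPM in control comparison cells, 1.90-fold lower. In squashed members it was at 32.6 CPM against 281 CPM in squashed comparison cells, 8.60-fold lower. Its part of all mitochondrial UMIs was accordingly larger, at 2.14% in control members against 0.190% in control comparison cells, and at 1.00% in squashed members against 0.306% in squashed comparison cells. These values rest on 56 UMIs in control members, where 1 cell held 7.14% of them, and on 16 UMIs in squashed members. The sources used here do not say whether strand was used in counting, so UMIs of MT-ND6 and of RNA from the opposite strand cannot be told apart. MT-ND4L, a short complex I subunit that shares its transcript with MT-ND4, was the second least lowered in control members at 5.95-fold, and was 11.4-fold lower in squashed members, on 17 UMIs in each.

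**Figure D2:**
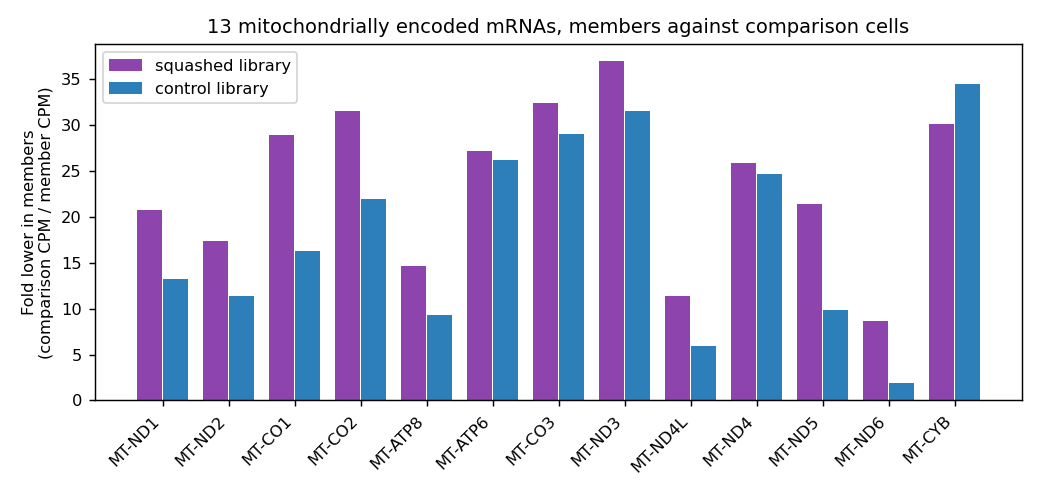
Bars give, for each of the 13 mitochondrially encoded mRNAs, how many times lower its CPM of all UMIs was in members than in comparison cells, in the squashed library and beside it in the control library. MT-ND6 is the lowest bar in both libraries, at 8.60 and 1.90, while MT-ND3 stands at 36.9 and 31.5.

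For the nuclear genes, UMIs were summed over the cells of a class, scaled to non-mitochondrial UMIs, and compared as log2 ratios of members over comparison cells. Of 2240 genes with at least 50 CPM, 0 (0%) were at least 2-fold higher in members in each library and 58 (2.59%) were at least 2-fold lower in each. With both libraries together and a limit of 1.5-fold, 6 genes (0.268%) were higher and 293 (13.1%) were lower. The lower genes were mostly those with long transcripts. The median log2 ratio was 0.14 for the 50 genes with transcripts up to 500 nucleotides, -0.05 for the 710 genes between 1500 and 3000 nucleotides, and -0.52 for the 345 genes over 5000 nucleotides. Of those 345 genes 45.8% were at least 1.5-fold lower, against 0% of the 50 shortest.

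The comparison cells were deeper, so a second comparison weighted them to the members' UMI depth in 7 ranges within each library. At matched depth the medians over length classes lay between -0.02 and 0.13, and the genes over 5000 nucleotides had a median of -0.02. Of 252 genes over 5000 nucleotides 13.9% were still at least 1.5-fold lower at matched depth, and 4.76% were at least 1.5-fold higher. Up to 500 nucleotides these shares were 0% and 2%. Of 2055 genes measured, 4 (0.195%) were at least 2-fold higher in members in each library, namely CDK1, HIST1H4C, SRSF5 and TRAPPC4, and 10 (0.487%) at least 2-fold lower. At 1.5-fold with both libraries together, 102 genes (4.96%) were higher and 93 (4.53%) lower. Only HNRNPU, a nuclear RNA-binding protein, and SLC7A5, an amino acid transporter, were at least 2-fold lower in each library in both comparisons; HNRNPU lies outside the rule for named genes. Both kinds of ratio are therefore given below. The matched values rest on few shallow comparison cells, and their intervals are approximate.

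NUPR1, a small stress-induced transcription regulator on chromosome 16 (28532708 to 28539008, minus strand, GRCh38), had the highest ratio. It was at 71.6 CPM in squashed members against 35.9 CPM in squashed comparison cells, and at 107 CPM in control members against 44.4 CPM in control comparison cells. The members were higher in both libraries, and the log2 ratio was 1.16 (interval 0.87 to 1.45) against all comparison cells and 0.92 at matched depth. It rested on 35 squashed and 65 control UMIs, and 1 cell held 10.0% of them. Its level in members was alike in all ranges of the mitochondrial share, at 101 CPM under 0.1%, 91.9 CPM from 0.1% to 0.5% and 83.2 CPM from 0.5% to 1%. In comparison cells it was 35.9, 39.9, 35.9 and 44.5 CPM from 1% to 2%, 2% to 5%, 5% to 10% and 10% to 20%. No range of comparison cells reached the level of any range of members.

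Also among the highest ratios were RALB, a small GTPase, with a log2 ratio of 0.76, PLSCR1, a phospholipid scramblase, with 0.62, and HIBCH, a mitochondrial enzyme of valine breakdown, with 0.59. At matched depth their log2 ratios were 0.72, 1.15 and 0.62. SRSF5, a splicing factor, was at 156 CPM in squashed members against 97.5 CPM in squashed comparison cells, and at 201 CPM in control members against 148 CPM in control comparison cells. Its log2 ratio was 0.52 against all comparison cells and 1.40 at matched depth. C11orf1, HSPB11, POLE4, ACAT2 and CZIB had log2 ratios between 0.45 and 0.57, each on between 65 and 124 UMIs.

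**Figure D3:**
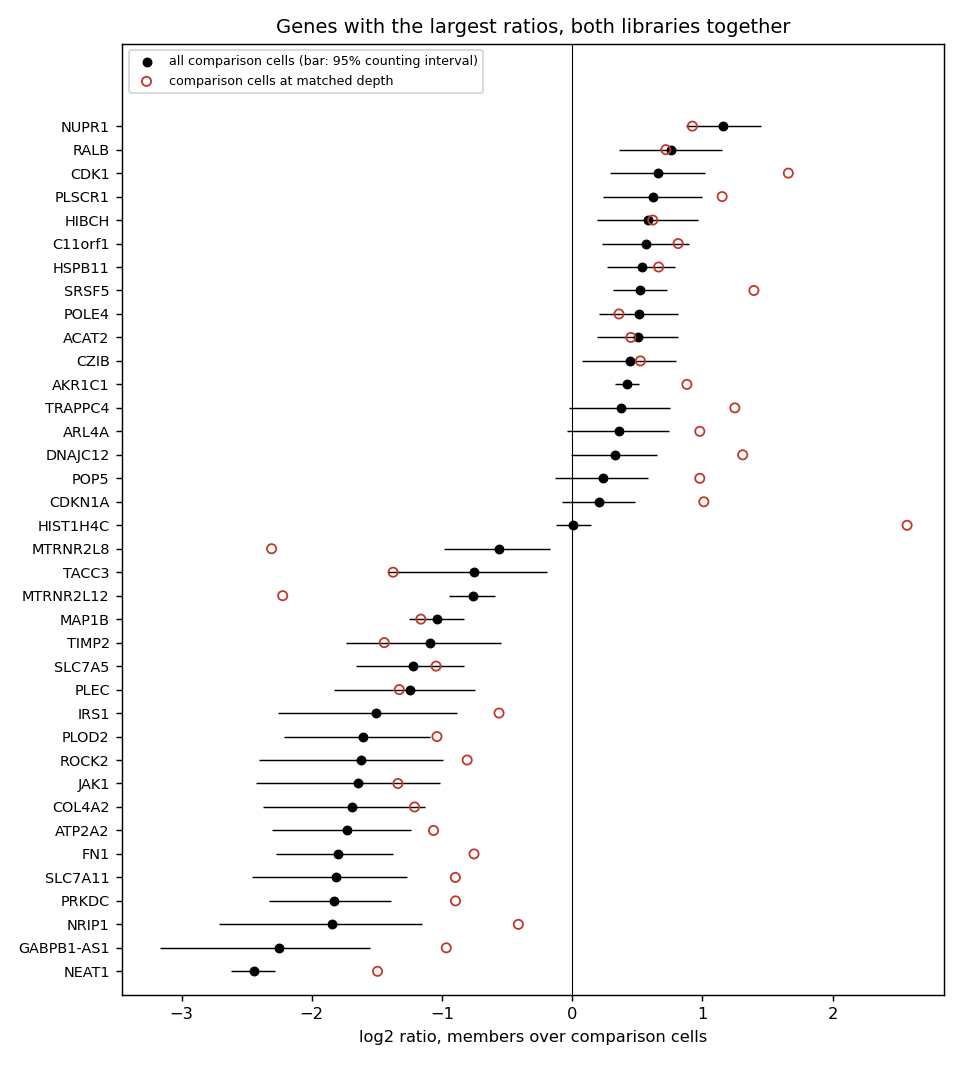
Log2 ratios of members over comparison cells for genes named by rank, both libraries together. Black points with 95% counting intervals use all comparison cells, red circles use comparison cells at matched depth, and the 2 differ most for HIST1H4C, at 0.01 and 2.57.

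Among the lowest ratios was that of JAK1, a kinase that relays cytokine receptor signals. It was at 16.4 CPM in squashed members against 50.6 CPM in squashed comparison cells, and at 16.5 CPM in control members against 53.7 CPM in control comparison cells. Its log2 ratio was -1.65 (interval -2.43 to -1.01), and -1.34 at matched depth, on 18 UMIs in members. At matched depth it was below the minimum of 50 CPM, as were COL4A2, SLC7A11, IRS1, ROCK2, NRIP1, GABPB1-AS1 and LRPPRC, so their matched values are the least certain. ATP2A2, the calcium pump of the endoplasmic reticulum, had a log2 ratio of -1.73 and of -1.06 at matched depth. COL4A2, a chain of basement membrane collagen, had -1.69 and -1.21, and PLOD2, which hydroxylates collagen lysines, had -1.60 and -1.04. Comparison cells with 1% to 2% mitochondrial UMIs were also low in ATP2A2, COL4A2 and PLOD2, at 33.6, 15.6 and 31.3 CPM. In members under 0.1% these genes were at 28.8, 39.6 and 39.6 CPM, and from 0.1% to 0.5% at 33.6, 22.4 and 20.2 CPM. From 0.5% to 1% they were at 21.5, 5.37 and 21.5 CPM, and in comparison cells from 10% to 20% at 137, 100 and 100 CPM.

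For other genes among the lowest the matched ratio was much closer to 0. PRKDC, the catalytic subunit of DNA-dependent protein kinase, had a log2 ratio of -1.83 against all comparison cells and of -0.90 at matched depth. SLC7A11, the cystine transporter, had -1.81 and -0.90. FN1, the matrix protein fibronectin, had -1.80 and -0.75. By mitochondrial share, FN1 was at 57.6 CPM in members under 0.1%, 56.1 CPM from 0.1% to 0.5% and 5.37 CPM from 0.5% to 1%. In comparison cells it was at 8.60 CPM from 1% to 2%, 14.9 CPM from 2% to 5%, 89.2 CPM from 5% to 10% and 250 CPM from 10% to 20%. Members under 0.5% were thus above comparison cells under 5% in FN1, and below those over 5%. IRS1, an adaptor of insulin signalling, had -1.50 and -0.56, and ROCK2, a kinase that acts on myosin, had -1.62 and -0.81. NRIP1, a nuclear receptor corepressor, had -1.84 and -0.41, and the antisense RNA GABPB1-AS1 had -2.26 and -0.97 on 14 member UMIs.

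Among the lowest genes at matched depth were MTRNR2L12 and MTRNR2L8, nuclear copies of a mitochondrial rRNA gene described further on, and TIMP2, PLEC, TACC3, MAP1B and SLC7A5. TIMP2, an inhibitor of matrix proteases, was at 22.5 CPM in squashed members against 73.6 CPM in depth-matched squashed comparison cells, and at 23.0 CPM in control members against 54.1 CPM in depth-matched control comparison cells. MAP1B, a microtubule-binding protein, was at 227 CPM against 509 CPM in squashed and at 117 CPM against 262 CPM in control cells. Both genes were lower in members of both libraries. PLEC, which links intermediate filaments to membranes, had a matched log2 ratio of -1.33, and SLC7A5 of -1.04. TIMP2, PLEC, TACC3, MAP1B and SLC7A5 were also below 0 against all comparison cells, between -0.76 and -1.25.

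Nuclear genes for respiratory chain subunits were at about the same level in members as in comparison cells. Of the 37 nuclear genes of complex I, all 37 were measured, and 0 were at least 1.5-fold higher or lower in members, beside backgrounds of 0.268% higher and 13.1% lower over all measured genes. Their median log2 ratio was 0.13, against -0.03 for all measured genes, and 0.09 at matched depth, against 0.06. Their summed level was 1.13% of squashed members' non-mitochondrial UMIs against 1.06% in squashed comparison cells, and 1.09% in control members against 0.979% in control comparison cells. NDUFA11, an accessory subunit, was at 467 CPM in squashed members against 364 CPM in squashed comparison cells, and at 385 CPM in control members against 313 CPM in control comparison cells.

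Other nuclear-encoded mitochondrial groups gave like values. Of 39 listed nuclear genes of complexes II to V, 37 were measured, 0 were past 1.5-fold, and the median log2 ratio was 0.06. Of 55 mitochondrial ribosomal proteins, which translate the mitochondrial mRNAs, 45 were measured, 0 were past 1.5-fold and the median was 0.15. At matched depth 40 of 44 measured were above 0 with a median of 0.27, and MRPL20, MRPL36 and MRPS5 were at least 1.5-fold higher, beside a background of 4.96%. MRPL20, of the large subunit, was at 209 CPM in squashed members against 175 CPM in squashed comparison cells, and at 194 CPM in control members against 142 CPM in control comparison cells. Of 21 genes of mitochondrial protein import, 15 were measured, 0 were past 1.5-fold, and the median was 0.10. At matched depth 1 of 14, TIMM22 of the inner membrane translocase, was at least 1.5-fold higher, where 4.96% of all measured genes were.

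TFAM, which packages the mitochondrial genome and starts its transcription, went in opposite directions in the 2 libraries. It was at 141 CPM in squashed members against 117 CPM in squashed comparison cells, and at 65.8 CPM in control members against 91.6 CPM in control comparison cells. At matched depth its log2 ratios were 0.83 in squashed and 0.08 in control cells. LRPPRC, which stabilises mitochondrial mRNAs, was lower in both. It was at 8.19 CPM in squashed members against 45.4 CPM in squashed comparison cells, and at 28.0 CPM in control members against 59.9 CPM in control comparison cells. The log2 ratio of LRPPRC was -1.46 (interval -2.17 to -0.87), and -0.79 at matched depth, on 21 UMIs in members. By mitochondrial share, LRPPRC was at 14.4, 20.2 and 21.5 CPM in members under 0.1%, from 0.1% to 0.5% and from 0.5% to 1%. Comparison cells from 1% to 2% were also low, at 13.3 CPM. From 2% to 5%, 5% to 10% and 10% to 20% comparison cells were at 29.4, 41.7 and 78.4 CPM. Of the 25 listed genes for mitochondrial DNA, transcription and RNA processing, 8 were measured and 1, LRPPRC, was at least 1.5-fold lower, where 13.1% of all measured genes were. At matched depth 0 of 5 were.

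Of 13 mitochondrial chaperones and proteases, 5 were measured. YME1L1, a protease of the inner membrane, had a log2 ratio of -1.01 and of -0.70 at matched depth. HSPD1, the chaperonin of the matrix, was at 1062 CPM in squashed members against 1312 CPM in squashed comparison cells, and at 953 CPM in control members against 1242 CPM in control comparison cells. Of 22 genes of mitochondrial fission, fusion and mitophagy, 12 were measured and 0 were past 1.5-fold against all comparison cells. At matched depth 2 of 12, OPTN at 0.63 and FUNDC1, a mitophagy receptor, at 0.58, were at least 1.5-fold higher, where 4.96% of all measured genes were. OPTN, an adaptor in mitophagy, had the largest ratio of them against all comparison cells at 0.54, and SQSTM1, another adaptor, was at -0.39.

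**Figure D4:**
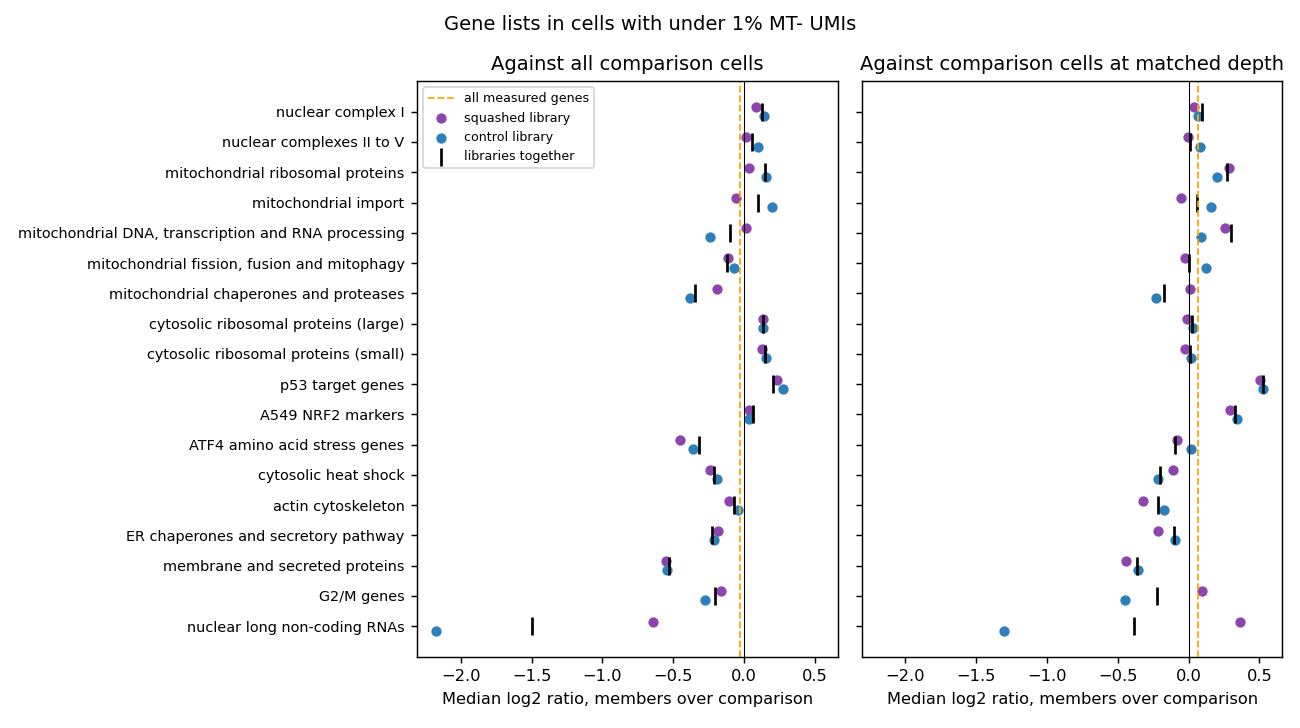
Median log2 ratio of members over comparison cells for 18 gene lists, against all comparison cells on the left and against comparison cells at matched depth on the right. Purple points are the squashed library, blue points the control library, black bars both together and the orange line all measured genes; membrane and secreted proteins lie left of it in both panels and libraries.

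Genes for membrane and secreted proteins were lower in members by the median ratio. Their summed level was not below that of every range of comparison cells. Of 24 listed genes 19 were measured, and 9 were at least 1.5-fold lower against all comparison cells, where 13.1% of all measured genes were. The median log2 ratio was -0.53, with -0.55 in the squashed and -0.54 in the control library. At matched depth the median was -0.37, 8 of 19 were at least 1.5-fold lower, where 4.53% of all measured genes were, and 1 of 19 was above 0. With the median of each gene's transcript length class taken off, the list's median was -0.46 against all comparison cells and -0.43 at matched depth. The list's summed level was 4812, 4280 and 3451 CPM in members under 0.1% mitochondrial UMIs, from 0.1% to 0.5% and from 0.5% to 1%. It was 3883, 4166, 5145 and 6293 CPM in comparison cells from 1% to 2%, 2% to 5%, 5% to 10% and 10% to 20%. Members under 0.5% were thus above comparison cells under 5% in this sum, and below those over 5%. The list's median log2 ratio was -0.27 against cells with 2% to 10%, and -0.73 with members taken up to 2%. The list was chosen with earlier results of these data known.

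ITGA3, an integrin that binds laminin, was at 49.1 CPM in squashed members against 97.1 CPM in squashed comparison cells, and at 34.6 CPM in control members against 91.6 CPM in control comparison cells. Its log2 ratio was -1.19, and -1.09 at matched depth. PSAP, the precursor of lysosomal saposins, was at 180 CPM in squashed members against 356 CPM in squashed comparison cells, and at 186 CPM in control members against 347 CPM in control comparison cells. For both genes the members were lower in each library and the ratio moved little with depth. APLP2 and APP, a pair of related membrane proteins, had log2 ratios of -1.54 and -1.14, and at matched depth of -1.15 and -0.71. ITGB1, the partner chain of many integrins, had -0.87 and at matched depth -0.60. CD63, TIMP1, GPX4 and TMED10 differed little and lay between -0.06 and 0.08.

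Of 24 measured chaperones and secretory genes of the endoplasmic reticulum, 5 were at least 1.5-fold lower, where 13.1% of all measured genes were, and the median was -0.22. At matched depth 3 of 23 were at least 1.5-fold lower, where 4.53% of all measured genes were, 2 of 23 were above 0 and the median was -0.10. CANX, a membrane-bound chaperone of glycoproteins, was at 180 CPM in squashed members against 264 CPM in squashed comparison cells, and at 156 CPM in control members against 312 CPM in control comparison cells. HSP90B1, a chaperone in the lumen, had a log2 ratio of -1.01 and of -0.64 at matched depth. Among 14 measured cytosolic heat shock genes 1 was at least 1.5-fold lower, HSPH1 at -0.86, beside a background of 13.1%, 2 were above 0 and the median was -0.21. At matched depth 0 of 14 were past 1.5-fold. HSP90AA1, an abundant cytosolic chaperone, was at 3416 CPM in squashed members against 4399 CPM in squashed comparison cells, and at 2664 CPM in control members against 3852 CPM in control comparison cells. Of 23 measured actin cytoskeleton genes, 2 were at least 1.5-fold lower, below the share of 13.1% over all measured genes, namely the myosin heavy chain MYH9 and the actin crosslinker ACTN1, at -0.76 and -0.71. At matched depth 4 of 24 were, MYH9, FLNA, TPM1 and TPM4, between -0.90 and -0.67, where 4.53% of all measured genes were.

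None of the measured targets of p53, a transcription factor that responds to stress and DNA damage, was past 1.5-fold against all comparison cells. Of 15 listed targets 7 were measured, all 7 were above 0, 0 were at least 1.5-fold higher, where 0.268% of all measured genes were, and the median log2 ratio was 0.21 against all comparison cells. At matched depth the median was 0.53, where that of all measured genes was 0.06, and 2 of 7, CDKN1A and FDXR, were at least 1.5-fold higher, where 4.96% of all measured genes were. BAX, a pore-forming protein of apoptosis, was at 252 CPM in squashed members against 172 CPM in squashed comparison cells, and at 290 CPM in control members against 218 CPM in control comparison cells. FDXR, a mitochondrial reductase, was at 53.2 CPM against 43.7 CPM in squashed and at 125 CPM against 81.0 CPM in control cells. Both were higher in members of each library. CDKN1A, the p21 inhibitor of cell cycle kinases, was at 147 CPM in squashed members against 104 CPM in squashed comparison cells, and at 57.6 CPM in control members against 68.8 CPM in control comparison cells, so its direction differed between the libraries. At matched depth CDKN1A had log2 ratios of 0.99 in squashed and 1.03 in control cells. With members taken up to 2% mitochondrial UMIs the list's median was -0.06, and with at least 5000 UMIs it was 0.03. The list's summed level was 4131, 3803 and 2657 CPM in members under 0.1%, from 0.1% to 0.5% and from 0.5% to 1%. In comparison cells it was 2656, 2412, 2891 and 3770 CPM from 1% to 2%, 2% to 5%, 5% to 10% and 10% to 20%. Members from 0.5% to 1% were thus below comparison cells over 5% in this sum.

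The aldo-keto reductase AKR1C1 on chromosome 10 (4963253 to 4983283, plus strand, GRCh38), an NRF2 target of the A549 line, was at 845 CPM in squashed members against 634 CPM in squashed comparison cells, and at 839 CPM in control members against 623 CPM in control comparison cells. The log2 ratio was 0.42 (interval 0.33 to 0.52) against all comparison cells and 0.88 at matched depth. Its reads may be shared with near-identical family members such as AKR1C2. AKR1C1 was not evenly spread over the members, at 1343 CPM in those under 0.1% mitochondrial UMIs, 906 CPM from 0.1% to 0.5% and 391.8 CPM from 0.5% to 1%. In comparison cells it was at 253 CPM from 1% to 2%, 303 CPM from 2% to 5%, 492 CPM from 5% to 10% and 943 CPM from 10% to 20%. With members taken up to 2% the log2 ratio of AKR1C1 was -0.28 and that of CDK1 was -0.26, so both changed direction.

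Several genes had this shape, high at both ends of the mitochondrial share and low between. The replication-linked histone H4 gene HIST1H4C was at 1138, 249 and 93.9 CPM in the 3 ranges of members, and at 20.3, 21.4, 123 and 904 CPM in the 4 ranges of comparison cells from 1% to 20%. CDK1, the kinase that drives mitosis, was at 126, 58.3 and 8.05 CPM in members, and at 6.25, 7.41, 17.4 and 70.7 CPM in comparison cells. The members under 0.1% were thus nearer to comparison cells over 10% than to cells just across the 1% limit in these genes. The 60 members under 0.1% had a median of 3738.5 UMIs, and the 1163 comparison cells over 10% had a median of 18212 UMIs. Whether depth or cell cycle stage plays a part in this shape was not tested. For HIST1H4C 1 cell held 21.9% of the members' UMIs.

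**Figure D5:**
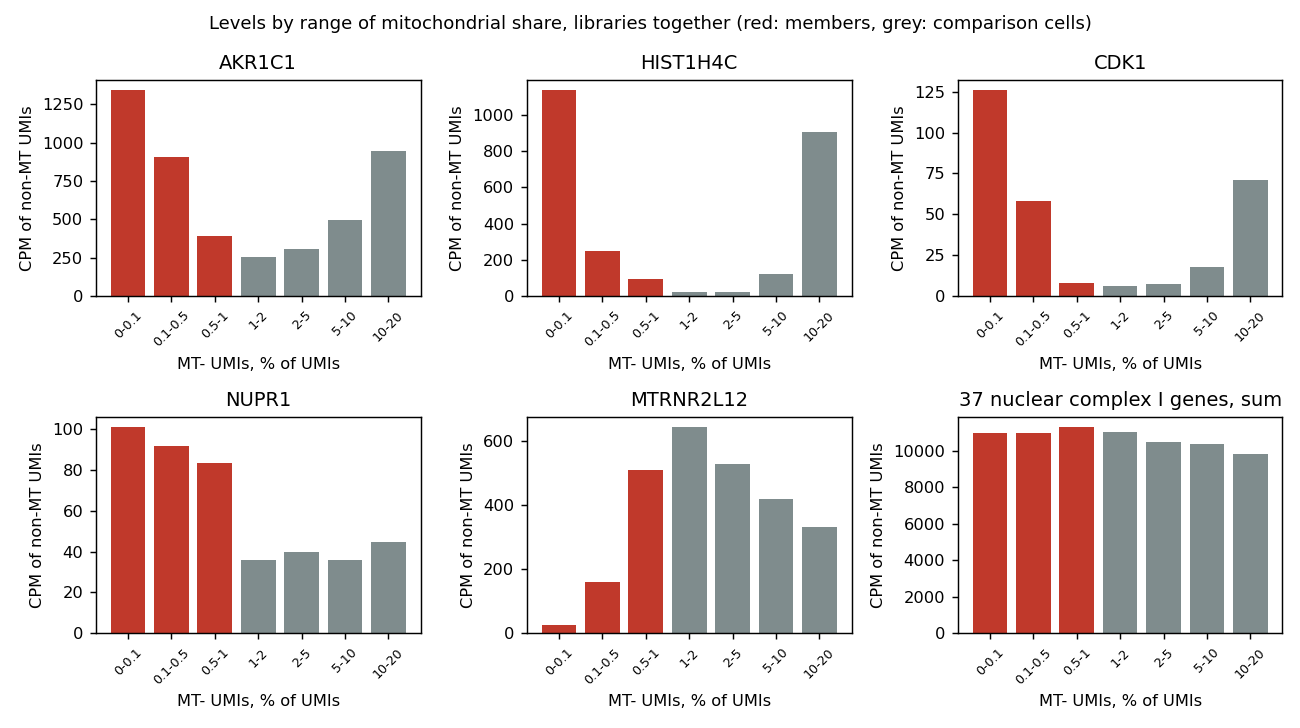
Levels in CPM of non-mitochondrial UMIs by range of the mitochondrial share, both libraries together, with members in red and comparison cells in grey. AKR1C1, HIST1H4C and CDK1 are high at both ends, NUPR1 is high in all 3 ranges of members, MTRNR2L12 climbs from 25.2 CPM to 643 CPM between the first and the fourth range, and the sum of 37 nuclear complex I genes lies between 9805 and 11271 CPM throughout.

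Genes of G2 and mitosis were mostly lower in members with both libraries together, with 31 of 35 measured below 0 and 4 above. At matched depth 28 of 34 were below 0 and 6 above. Of 35 measured, 1 was at least 1.5-fold higher, CDK1, and 9 were at least 1.5-fold lower, among them the kinetochore genes CENPE at -2.30 and CENPF at -1.47, where 0.268% of all measured genes were higher and 13.1% lower. The median log2 ratio was -0.20. At matched depth 1 of 34 was at least 1.5-fold higher and 3 were at least 1.5-fold lower, where 4.96% of all measured genes were higher and 4.53% lower. The matched median was -0.22 for both libraries together, 0.09 in squashed and -0.45 in control cells, and CENPF had a matched log2 ratio of -0.49. MKI67, a marker of proliferation, was at 53.2 CPM in squashed members against 131 CPM in squashed comparison cells, and at 37.9 CPM in control members against 138 CPM in control comparison cells. Its log2 ratio was -1.58, and -1.01 at matched depth. TOP2A, the topoisomerase of mitotic chromosomes, had -0.69 against all comparison cells and 0.02 at matched depth. Per cell, the list's share of non-mitochondrial UMIs had a median of 0.625% in squashed members against 0.448% in squashed comparison cells. In control members it was 0.294% against 0.890% in control comparison cells, so the libraries went opposite ways. Of 6 measured genes of G1 and S phase, 0 were at least 1.5-fold higher and 1 was at least 1.5-fold lower, RRM1, a subunit of ribonucleotide reductase, at -0.78, beside a background of 13.1%. The median of these 6 was 0.08, and at matched depth the medians were 0.55 in squashed and -0.40 in control cells over 5 genes. PCNA, the sliding clamp of DNA replication, had a log2 ratio of 0.31 and of 0.53 at matched depth.

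Nuclear long non-coding RNAs were lower in members in the summed UMIs, while medians over cells went different ways in the 2 libraries. Of 9 listed, 4 were measured and 3 were at least 1.5-fold lower, where 13.1% of all measured genes were. At matched depth 1 of 3, NEAT1, was, beside a background of 4.53%. NEAT1, the scaffold of nuclear paraspeckles on chromosome 11 (65422774 to 65445540, plus strand, GRCh38), was at 352 CPM in squashed members against 1034 CPM in squashed comparison cells, and at 201 CPM in control members against 1810 CPM in control comparison cells. Its log2 ratio was -2.45 against all comparison cells and -1.49 at matched depth. MALAT1, an abundant RNA of nuclear speckles, was at 7494 CPM in squashed members against 11432 CPM in squashed comparison cells, and at 3719 CPM in control members against 10994 CPM in control comparison cells. At matched depth its log2 ratio was 0.77 in squashed and -1.30 in control cells. Without comparison cells in which the list took over 5% of non-mitochondrial UMIs, the matched log2 ratios were 1.16 for MALAT1 and 0.58 for NEAT1. The direction of both thus rested on those cells. For NEAT1, 1 cell held 20.1% of the members' UMIs. The list's share of a cell's non-mitochondrial UMIs had a median of 0.283% in squashed members against 0.167% in squashed comparison cells. In control members it was 0.0951%, against 0.219% in control comparison cells.

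The nuclear genes MTRNR2L12 and MTRNR2L8 are copies of MT-RNR2, the 16S ribosomal RNA gene of the mitochondrial genome, and their counts cannot be told apart from reads of MT-RNR2 with certainty. MTRNR2L12 lies on chromosome 3 (96617186 to 96618223, GRCh38) and is 95.4% identical to MT-RNR2 over 1035 aligned bases. MTRNR2L8 lies on chromosome 11 (10507887 to 10509176) and is 93.3% identical over 1289 aligned bases. The 60 bases nearest the 3′ end of MT-RNR2 that align without a gap in both copies are shown 5′ to 3′, from the GRCh38 genome sequence, with the position of MT-RNR2 from GENCODE and those of the copies from RefSeq (GRCh38.p14), with bases of the copies that differ from MT-RNR2 in capitals.
MT-RNR2 (chrM:2659-2718, plus strand): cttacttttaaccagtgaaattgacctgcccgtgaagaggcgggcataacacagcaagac
MTRNR2L12 (chr3:96617188-96617247, minus strand): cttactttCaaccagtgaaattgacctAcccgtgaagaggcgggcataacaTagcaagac
MTRNR2L8 (chr11:10508141-10508200, minus strand): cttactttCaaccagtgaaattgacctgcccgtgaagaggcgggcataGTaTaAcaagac
The copies differ from MT-RNR2 at 3 and 5 of these 60 bases.

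MTRNR2L12 was at 180 CPM in squashed members against 381 CPM in squashed comparison cells, and at 298 CPM in control members against 446 CPM in control comparison cells. Shallow comparison cells had more of it, so that at matched depth the comparison was 1365 CPM in squashed and 972 CPM in control cells, and the log2 ratio was -2.22, against -0.76 with all comparison cells. MTRNR2L8 was at 49.1 CPM in squashed members against 366 CPM in depth-matched squashed comparison cells, and at 46.1 CPM in control members against 133 CPM in depth-matched control comparison cells. Within the members MTRNR2L12 followed the mitochondrial share, with 25.2 CPM under 0.1%, 161 CPM from 0.1% to 0.5% and 510 CPM from 0.5% to 1%. In comparison cells it was at 643 CPM from 1% to 2%, 528 CPM from 2% to 5%, 420 CPM from 5% to 10% and 333 CPM from 10% to 20%. With members taken up to 2% the log2 ratio of MTRNR2L12 was 0.15.

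Within the members, the squashed library was set against the control library for 1226 genes with at least 100 CPM in either. At least 2-fold higher in squashed members were 41 genes (3.34%), and 86 (7.01%) were at least 2-fold lower. Among comparison cells 27 of the same genes (2.20%) were higher and 61 (4.98%) lower in squashed than in control cells. The 2 classes come from the same libraries, so a difference between the libraries enters both. The lowest ratio was that of MRPL12, a mitochondrial ribosomal protein, at 4.09 CPM in squashed members against 117 CPM in control members, on 2 and 71 UMIs. In comparison cells it was at 8.82 CPM in squashed against 105 CPM in control cells.

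NDUFAB1, an acyl carrier protein of complex I, was at 6.14 CPM in squashed members against 158 CPM in control members, and in comparison cells at 19.96 CPM in squashed against 128 CPM in control cells. TUFM, the mitochondrial translation elongation factor, was at 12.3 CPM in squashed members against 204 CPM in control members, and in comparison cells at 53.9 CPM against 185 CPM. For both genes the log2 ratio was lower in members, at -4.47 and -3.95, than in comparison cells, at -2.68 and -1.78, on 3 and 6 UMIs in squashed members; the difference was not tested. AURKAIP1, a protein of the mitochondrial ribosome, had -3.17 in members and -2.38 in comparison cells. PPDPF and DDT had -2.99 and -2.97 in members and -3.09 and -2.92 in comparison cells.

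The highest ratio was that of PEG10, a gene derived from a retrotransposon, at 209 CPM in squashed members against 34.6 CPM in control members, with a log2 ratio of 2.57 (interval 1.91 to 3.35). In comparison cells it was at 232 CPM in squashed against 81.4 CPM in control cells, a log2 ratio of 1.51. NDUFB1, a complex I subunit, was at 823 CPM in squashed members against 212 CPM in control members, and ATP5ME, of the ATP synthase, at 669 CPM against 193 CPM. RPS29, of the small cytosolic ribosomal subunit, was at 7572 CPM in squashed members against 2186 CPM in control members. The log2 ratios of NDUFB1, ATP5ME and RPS29 were 1.95, 1.79 and 1.79 in members and 1.84, 1.94 and 1.78 in comparison cells, so the members carried these differences between the libraries at about the same size as the other cells.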

How the data were processed

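Single-cell RNA was measured in 2 libraries of A549 cells, 1 per treatment, made with a 10x Genomics Chromium 3.1 kit and sequenced on a NovaSeq 6000, per the labels' design text. For 36601 genes, each deposited file gives whole-number counts of UMIs by cell barcode with no normalization by the authors. Cell Ranger did the counting on GRCh38. Its version is given as 4.0.0 in the file headers, where the labels' design text names 5.0.1. The submitters' processing notes also list R 4.3.2. No source used here says how barcodes were chosen as cells.

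Tools were matplotlib 3.10.9, scanpy 1.11.5, pandas 2.3.3, scipy 1.17.1 and numpy 2.4.6 under Python 3.11.15, with edgeR 4.0.16 in R 4.3.3 for TMM scaling factors only. UMIs were summed per class and library and scaled to CPM of non-mitochondrial UMIs. Comparison cells were weighted to the members' mix of libraries, and a prior of 0.5 count was used. Intervals are exact Poisson intervals of the member count, or exact binomial intervals of a share. Nothing was tested for significance, because the members were chosen by values of the same cells, cells are not replicates, and each treatment has 1 library. Doublet calls by Scrublet were kept. Transcript lengths (canonical transcript) and gene positions came from GENCODE 44. The steps were tested on simulated data.

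The members and the 38 gene lists were chosen with earlier results of these data known. Named genes are the 12 highest and 12 lowest ratios that had the same direction in each library, ranked by the smaller of the 2 libraries' ratios, up to 4 genes of each list with the largest ratio, all MT- genes, NEAT1, MALAT1, TFAM, MKI67, TOP2A and CDKN1A, and within members the 6 highest and 6 lowest ratios of squashed over control. The matched depth and the 8 highest and 8 lowest genes there were added after seeing the data, as were a few further list members (PSAP, ITGB1, CD63, TIMP1, GPX4, TMED10, MRPL36 and FLNA) and HNRNPU. A further gene that the rule names is not reported here. Alternatives changed the limits on the mitochondrial share, depth and CPM, the scaling, the weight of cells, the doublets and the libraries.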

Additional observations from a re-analysis of the deposited data

Results flagged for a closer look

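The effect of belonging to the members went in opposite directions in the 2 libraries for KRT18 and MT2A, with counting intervals clear of 0 in each library; the difference was not tested. KRT18, a keratin of simple epithelia, had a log2 ratio of -0.38 in the squashed library, at 473 CPM in members against 615 CPM in comparison cells. In the control library its log2 ratio was 0.27, at 2222 CPM in members against 1849 CPM in comparison cells. At matched depth the 2 log2 ratios of KRT18 were -0.02 in squashed and 0.38 in control cells.

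MT2A, a metallothionein that binds zinc and other metals, had a log2 ratio of -0.26 in the squashed library, at 2337 CPM in members against 2796 CPM in comparison cells. In the control library its log2 ratio was 0.48, at 1455 CPM in members against 1043 CPM in comparison cells. At matched depth the 2 log2 ratios of MT2A were -0.45 and 0.09. The cell with the most UMIs held 5.604% of the squashed and 6.45% of the control members' MT2A UMIs.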

How the results depend on the processing

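No paired analysis was possible because each treatment has 1 library and the labels give no replicate numbers. Membrane and secreted proteins stayed below 0 under all 15 alternatives, between -0.81 and -0.12, as did JAK1, between -2.06 and -1.17. NUPR1 stayed above 0, between 0.57 and 1.497, and nuclear complex I between 0.09 and 0.26; scaling to all UMIs and TMM scaling gave 0.26 each, with the median of all genes 0.15 higher under both. Genes at least 2-fold higher in each library, 0 in the main comparison, numbered 1 with members under 0.5%, with members under 2%, with at least 5000 UMIs, under both other scalings and with 20 CPM, 4 against cells with 2% to 10%, with each cell weighing the same, at matched depth and in the squashed library alone, 5 in the control library alone, 12 with cells thinned to 1000 UMIs, and 9 at matched depth without comparison cells of over 5% nuclear long non-coding RNA. Genes at least 2-fold lower, 58 in the main comparison, numbered 118 with members under 2%, 13 against cells with 2% to 10%, 121 with at least 5000 UMIs, 31 scaled to all UMIs, 33 under TMM, 10 with each cell weighing the same and at matched depth, 21 thinned, 182 in the control library alone, 191 with 20 CPM, 4 with 200 CPM and 8 at matched depth without those comparison cells.

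The median of p53 targets was -0.064 with members under 2%, 0.65 against cells with 2% to 10%, 0.64 thinned and 0.55 at matched depth without those cells. The median of nuclear long non-coding RNAs was -0.054 against cells with 2% to 10%, -2.78 with at least 5000 UMIs, -0.10 with each cell weighing the same, 0.12 thinned, -0.38 at matched depth and 0.58 without those cells. With members under 2%, CDK1 reversed to -0.26 and MTRNR2L12 to 0.15, and AKR1C1 was at -0.28. MALAT1 reversed to 0.0204 against cells with 2% to 10%, 0.12 thinned and 1.16 at matched depth without those cells. TPR, a nuclear pore protein at -1.02, reversed to 0.0574 thinned, 0.0349 at matched depth and 0.31 without those cells, and TOP2A to 0.021 at matched depth. Without those cells NRIP1 reversed to 0.0706, NEAT1 to 0.58 and FTX, at -1.94, to 0.35. The cause was not tested. Of the values of single named genes under these alternatives, 12 reversed, 663 moved beyond their interval and 1635 did not. The 12 are not all the changes of sign. AKR1C1 and HIST1H4C also changed sign with members under 2%, and were counted among those that moved.

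Members were 5.06% of squashed and 3.95% of control barcodes with the limit at 0.5%, 8.74% and 11.0% at 2%, 1.85% and 2.54% with at least 5000 UMIs, and 4.85% of all squashed barcodes. Their median UMIs and genes were 4550 and 1222 with the limit at 2%, 1746 and 736 in the squashed library alone, and 3779 and 1268 in the control library alone. At 18 to 31 comparison cells per library between 1000 and 1500 UMIs, matched ratios have little depth behind them.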

Other observations

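Of 30 listed proteasome genes 29 were measured, 1 was at least 1.5-fold lower, PSMC2, where 13.1% of all measured genes were, and the median log2 ratio was 0.09 against all comparison cells and 0.14 at matched depth. All 22 listed translation factors were measured, 0 were past 1.5-fold and the medians were 0.04 and 0.04. Host genes of small nucleolar RNAs had 10 of 11 measured above 0 with a median of 0.15, and 6 of 10 above 0 at matched depth with a median of 0.07. The large and small cytosolic ribosomal proteins had medians of 0.14 and 0.15, and at matched depth of 0.02 and 0.01. Of 10 measured glycolysis genes 1 was above 0, with a median of -0.10, and GPI, which converts glucose 6-phosphate, was lowest at -0.41.

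Of 9 measured tubulin and stathmin genes 0 were past 1.5-fold against all comparison cells, with medians of -0.12 in squashed and -0.17 in control cells. At matched depth the medians were 0.30 in squashed and -0.03 in control cells, and 1 of 9 was at least 1.5-fold higher, beside a background of 4.96%, namely TUBA4A, named after seeing its value. TUBA1B, an alpha tubulin, was at 1214 CPM in squashed members against 1318 CPM in squashed comparison cells, and at 629 CPM in control members against 1090 CPM in control comparison cells. Of 8 measured genes of the nuclear lamina and pore, 3 were at least 1.5-fold lower against all comparison cells, where 13.1% of all measured genes were, and 0 at matched depth, where 4.53% were. KPNB1, an importin, had a log2 ratio of -0.88 and of -0.39 at matched depth. ALDH3A1, an aldehyde dehydrogenase among the NRF2 markers, was at 845 CPM in squashed members against 843 CPM in squashed comparison cells, and at 1766 CPM in control members against 1119 CPM in control comparison cells.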
